A study of Mus musculus with 36 samples.

Results

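Cd74 and 6 genes of the MHC class II pathway, H2-Aa, H2-Ab1, H2-Eb1, H2-DMa, H2-DMb1 and Ciita, were followed through single-cell RNA sequencing of the mouse heart after ischaemic injury. These genes were taken by symbol, and all 7 had a row among the 20720 nuclear genes of the count tables. The hearts came from male C57BL/6 mice of 8 weeks, and cells of the infarct region of the left ventricle were sorted 1 per well into plates (SORT-seq). In the groups named IR, the left anterior descending artery was tied for 1 hour and then released. In the group MI it was tied permanently, and Sham mice underwent surgery without ligation. The groups were Sham 1D (4 plates), Sham 14D (8 plates), IR 1D (9 plates), IR 3D (7 plates), IR 14D (3 plates) and MI 3D (5 plates), with D for days after surgery. No genetic change is named for any group, and the sham groups were collected at 1 and 14 days, not at 3.

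MHC class II molecules present peptides taken up from outside the cell to CD4+ T cells. H2-Aa and H2-Ab1 encode the alpha and beta chains of the I-A molecule, and H2-Eb1 encodes the beta chain of I-E, whose alpha chain gene is disrupted in C57BL/6 mice. Cd74 encodes the invariant chain, which guides new class II molecules to endosomes, blocks their groove and is also a receptor for the cytokine MIF, while H2-DMa and H2-DMb1 encode the H2-DM pair that exchanges the remnant of the invariant chain for peptide. Ciita encodes the transactivator that interferon gamma induces and on which transcription of the whole group depends. Dendritic cells and B cells express these genes constitutively, and macrophages of the heart fall into populations with high and low levels.

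In GRCm38, 5 of the 7 genes lie within the MHC on chromosome 17, namely H2-DMa (chr17:34119541-34139101, plus strand), H2-DMb1 (chr17:34153072-34160230, plus strand), H2-Ab1 (chr17:34257689-34269419, plus strand), H2-Aa (chr17:34282744-34287823, minus strand) and H2-Eb1 (chr17:34305867-34316674, plus strand). The remaining members, Cd74 and Ciita, lie on other chromosomes. The class II promoters are shown because CIITA acts through proteins bound to shared X and Y boxes in them. The spans are those of GENCODE vM21, and RefSeq starts H2-DMb1 further downstream, so that its printed window overlaps the span given here. RefSeq promoter windows of GRCm38.p6 were at hand for 4 of the 7 genes, and the 120 bases before the start are given for 3 of them, 5′ to 3′ on the strand of the gene, with matches to the letters searched in capitals.
H2-Aa, chr17:34287824-34287943, minus strand: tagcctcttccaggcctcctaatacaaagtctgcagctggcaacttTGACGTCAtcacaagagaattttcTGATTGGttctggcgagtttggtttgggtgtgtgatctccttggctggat
H2-Eb1, chr17:34305747-34305866, plus strand: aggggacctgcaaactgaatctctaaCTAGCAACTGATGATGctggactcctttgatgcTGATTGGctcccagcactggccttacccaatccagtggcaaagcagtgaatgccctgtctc
H2-DMb1, chr17:34153071-34153190, plus strand: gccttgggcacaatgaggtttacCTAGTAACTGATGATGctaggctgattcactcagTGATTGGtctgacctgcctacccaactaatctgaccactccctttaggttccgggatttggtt
The letters were chosen after the sequences had been seen and were searched on both strands of windows from 250 bases before to 50 bases after each start. The Y box letters TGATTGG stood in all 3 printed sequences and in 2568 of 32851 windows (7.82%). The 16 bases most alike between H2-Eb1 and H2-DMb1, CTAGNAACTGATGATG with 1 base that differs, lie at the place of the X box upstream of the Y box. They were taken from these 2 windows, so their presence in both was fixed in advance. No window beside these 2 held them (0.00609%), which for a stretch of this length is no measure of how specific it is. H2-Aa held TGACGTCA, the letters of a cAMP response element found in 588 windows (1.79%), upstream of its Y box. X boxes of other letters were not searched for, so the search does not show that H2-Aa lacks one. The matches did not overlap one another, and the windows of H2-DMa held none of the 3. A match is a stretch of letters and no evidence of binding.

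Of 13824 wells, 3146 held at least 1000 UMIs (unique molecular identifiers, which count captured mRNA 3′ ends and were not divided by gene length), and plate totals ran from 176614 to 5551870 UMIs. Sham 14D replicates 2 and 7 shared their wells, in 76 of the 76 positions compared at 500 or more UMIs, so they were counted as 1 plate, by the mean of both tables in the fits and by replicate 7 in the descriptions. For the latter, leaving out the 45 wells of replicate 2 and 10 wells of other plates whose counts were copied left 3091 wells. Clustering without the 7 genes gave 19 clusters, and 3 of them, 580 wells in all, carried macrophage markers. Of the 9 macrophage markers with a row, 9 were raised in the cluster led by Ccr2, 9 in the one led by Gpnmb and 8 in the one led by Cd209f, Lyve1 and Cd163. The macrophage-like wells numbered 20 in Sham 1D, 7 in Sham 14D, 71 in IR 1D, 196 in IR 3D, 6 in IR 14D and 280 in MI 3D. They were deeper in MI 3D (median 22834 UMIs) than in IR 3D (8491), IR 1D (9511) and Sham 1D (5574), so depth and the kind of ligation cannot be told apart. The labels do not say which plates came from the same mouse, and the study names fewer mice than there are MI 3D plates, so plates shared animals. Errors and p-values measure the spread between plates, which may be technical, and such p-values can be too small.

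The group was most abundant in macrophage-like wells. These made up 18.8% of the wells and 36.1% of all UMIs, but held 86.9% of the UMIs of Cd74, 85.6% of H2-Aa, 84.8% of H2-Ab1, 82.5% of H2-Eb1, 88.1% of H2-DMa and 89.9% of H2-DMb1. Ciita, with 168 UMIs in all, had 53.6% of them there. Levels are given from here on in CPM, the UMIs of a gene per 1000000 UMIs, summed over the wells of a class on a plate. They are described without a test, since the classes were made from the same wells.

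The invariant chain gene Cd74 (GRCm38, chr18:60803848-60812652, plus strand) was the most abundant member, with 9143 UMIs in 549 wells and up to 397 in a single well. Over 22 plates, the median level of Cd74 in macrophage-like wells was 1409 CPM, with a range from 124 to 5268. It was 103 in neutrophil-like wells, 78.9 in wells of no named class, 13.5 in cardiomyocyte-like, 11.4 in endothelial-like and 0.85 in fibroblast-like wells. The same class led for the chains of I-A and I-E, with medians of 680 for H2-Aa, 755 for H2-Ab1 and 412 for H2-Eb1 CPM in macrophage-like wells. H2-DMa and H2-DMb1 were roughly an order lower there, at 69.1 and 82.2 CPM. Ciita (GRCm38, chr16:10480059-10528418, plus strand) was the lowest, with a median of 11.6 CPM and no UMI on 6 of the 22 plates, beside a median of 13.0 in wells of no named class.

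**Figure D1:**
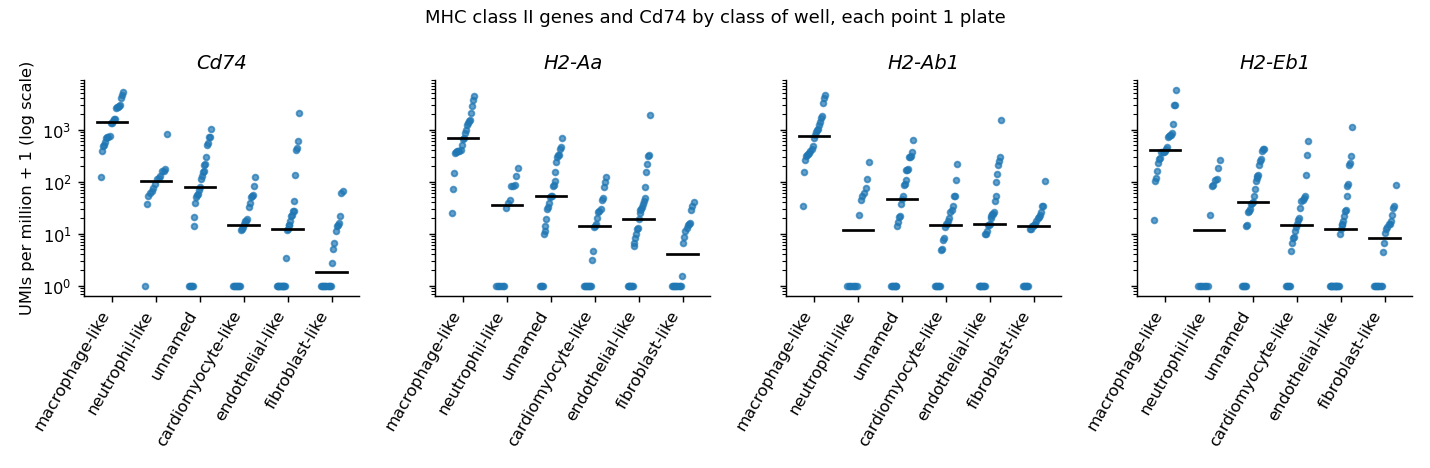
Level of Cd74, H2-Aa, H2-Ab1 and H2-Eb1 in each class of wells, in CPM + 1 on a log axis, with a point for each plate and a bar at the median over plates. Macrophage-like wells had the highest median for all 4 genes, from 412 CPM for H2-Eb1 to 1409 for Cd74.

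Neighbouring classes in that order overlapped over plates for each gene, and the lowest macrophage-like plate of Cd74, MI 3D replicate 3, lay within the neutrophil-like range. The endothelial-like range of Cd74 ran from 0 to 2062 CPM and so reached into the macrophage-like range. Cd74 was read in 48.4% of macrophage-like wells (95% exact interval 44.3 to 52.6%, counting error only), against 7.14% of cardiomyocyte-like wells, a cell type that should lack it. The median depths were 12760 and 2313 UMIs. With each well thinned to 1000 UMIs the shares were 20.7% and 2.35%. For H2-Ab1 the thinned shares were 15.7% and 3.07%, for H2-DMa 7.76% and 0.54%, and for Ciita 1.72% and 0.18%. Each of these genes stayed above the cardiomyocyte-like background. H2-Eb1 had a median of 13.5 CPM over cardiomyocyte-like plates but reached 597 on 1 of them, above its macrophage-like median of 412.

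Within the macrophage-like wells, few wells carried most of the transcripts. Of the 580 wells, 299 had no UMI of Cd74, whereas the 58 wells with the highest counts held 83.1% of all Cd74 UMIs, 91.3% of H2-Aa, 88.6% of H2-Ab1 and 91.6% of H2-Eb1 when ranked for each gene. H2-DMa and H2-DMb1 were spread more widely, with 54.1% and 59.2%. In MI 3D, 28 of the 280 wells held 88.2% of Cd74, and in IR 3D, 20 of the 196 wells held 90.3%. In IR 1D, 8 of 71 wells held 58.5%, and in Sham 1D, 2 of 20 wells held 42.7%.

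**Figure D2:**
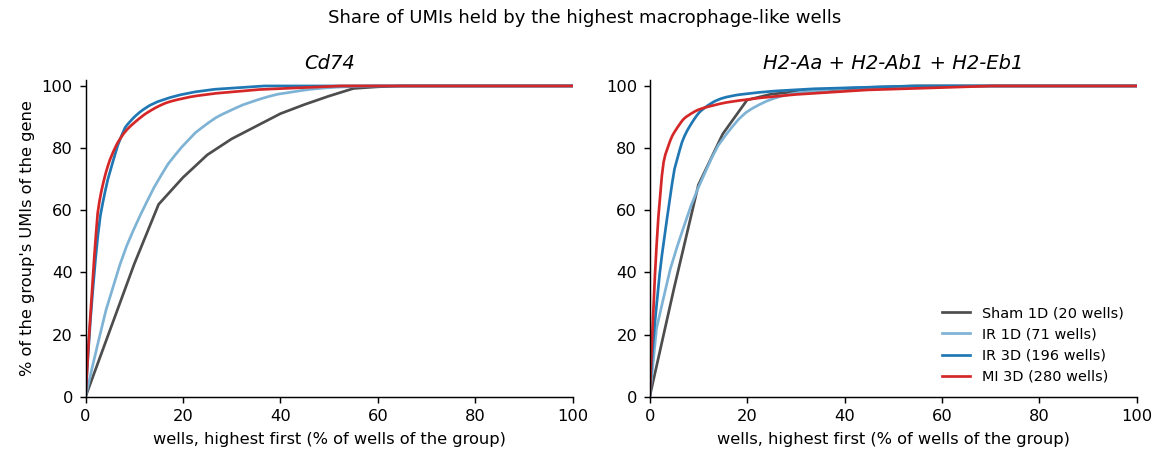
Cumulative share of the UMIs of Cd74 (left) and of the 3 chains together (right), in percent, against the share of macrophage-like wells of a group, in percent, with wells ranked from the highest count and a line for each group of at least 10 wells. The lines of MI 3D and IR 3D rise most steeply, with 88.2% and 90.3% of Cd74 in the top 10% of wells.

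Together, 134 wells with at least 10 UMIs of Cd74 and the chains held 96.4% of their UMIs. Those wells kept the macrophage markers, at 12473 CPM against 13675 in the other 446 wells. They also had more UMIs of dendritic cell markers (246 against 69.8 CPM) and of B cell markers (44.9 against 6.5 CPM). All 10 dendritic cell markers were read in the 580 wells, led by Itgax with 524 UMIs and Clec10a with 387, a gene also among the leading ones of the macrophage-like cluster of Cd209f, Lyve1 and Cd163, while Flt3 had 56, Xcr1 37 and Zbtb46 15. Of the 5 B cell markers with a row, Cd79b had 88 UMIs and Cd79a 58, and none was at 0. In all, 203 wells had at least 2 UMIs of either list, and they held 6010 of the 7948 Cd74 UMIs, at 1056 CPM against 361 in the rest. Within groups, Cd74 was higher in such wells in IR 1D (3927 against 731), IR 3D (1538 against 329) and MI 3D (759 against 201), while Sham 1D went the other way (1217 in 8 wells against 3397 in 12), as did the few wells of Sham 14D and IR 14D. Of the 90 Ciita UMIs in macrophage-like wells, 79 lay in the 203 wells, at 13.9 against 2.0 CPM. The 203 wells were deeper, at a median of 22371 against 10190 UMIs, and held 5690395 UMIs of all genes against 5373905. Whether part of these wells were dendritic or B cells was not tested.

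The members moved together from well to well. Across the 280 MI 3D wells, the log level of Cd74 correlated with H2-Ab1 at r = 0.827, with H2-Aa at 0.784 and with H2-Eb1 at 0.724, and the 3 chains with each other at 0.823 to 0.848. Correlations with H2-DMa (0.493), H2-DMb1 (0.526) and Ciita (0.602) were lower. Ciita was read in 15 of these wells, of which 15 also held H2-Aa and 14 held Cd74. These coefficients are a description over wells that share plates and differ in depth.

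In macrophage-like wells after permanent ligation, Cd74 and the I-A chains were lower than 3 days after ischaemia-reperfusion. Cd74 measured 756, 384.7, 124, 699 and 590 CPM on the 5 MI 3D plates, against a lowest value of 492.6, a median of 1497 and a highest of 2926 on 6 IR 3D plates. On the 3 Sham 1D plates it measured 2585, 1377 and 4057, and on 7 IR 1D plates it ran from 514 through a median of 2686 to 5268. Every MI 3D plate lay below every Sham 1D plate, while 3 of the 5 lay within the IR 3D range at its low end. The single IR 14D plate with enough wells stood at 1576, and no Sham 14D plate had 5 macrophage-like wells, though the 7 wells of that group together stood at 5079.

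The IR 3D plates were uneven in size, and the larger ones were the lower ones. Replicates 4 and 7, with 82 and 71 macrophage-like wells, stood at 738 and 492.6 CPM for Cd74, within the MI 3D range, while the other 4 plates, with 6 to 19 wells, stood at 1359 to 2926. H2-Ab1 stood at 495 and 705 on these larger plates, above all MI 3D plates. With each well thinned to 1000 UMIs, Cd74 was read in 13.6% of the MI 3D wells, 17.9% of the IR 3D wells, 43.7% of the IR 1D wells and 55.0% of the Sham 1D wells, and H2-Aa in 8.93%, 15.3%, 32.4% and 25% in the same order. Before thinning the shares for Cd74 were 52.1%, 36.7%, 59.2% and 65.0%, with MI 3D deepest, so the order of MI 3D and IR 3D by share turned with depth.

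H2-Ab1, the beta chain of I-A, separated MI 3D from IR 3D and Sham 1D. It measured 424, 155, 33.0, 340 and 260 CPM in MI 3D, against 495 to 4109.5 with a median of 1358 in IR 3D and 1258, 806 and 1411 in Sham 1D. No MI 3D plate reached a plate of either group. H2-Aa, the alpha chain, followed it, with 397, 145, 23.7, 389 and 373 in MI 3D, 516 to 3702 with a median of 1101 in IR 3D, and 982, 873 and 1323 in Sham 1D. Here too the MI 3D plates overlapped neither group. H2-Eb1 measured 369.9, 100.5, 17.2, 291 and 226 in MI 3D, against 366 to 3057 in IR 3D, where the highest MI 3D plate just passed the lowest IR 3D plate, and 396, 806 and 794 in Sham 1D. MI 3D replicate 3 was the lowest plate for Cd74 and all 3 chains.

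**Figure D3:**
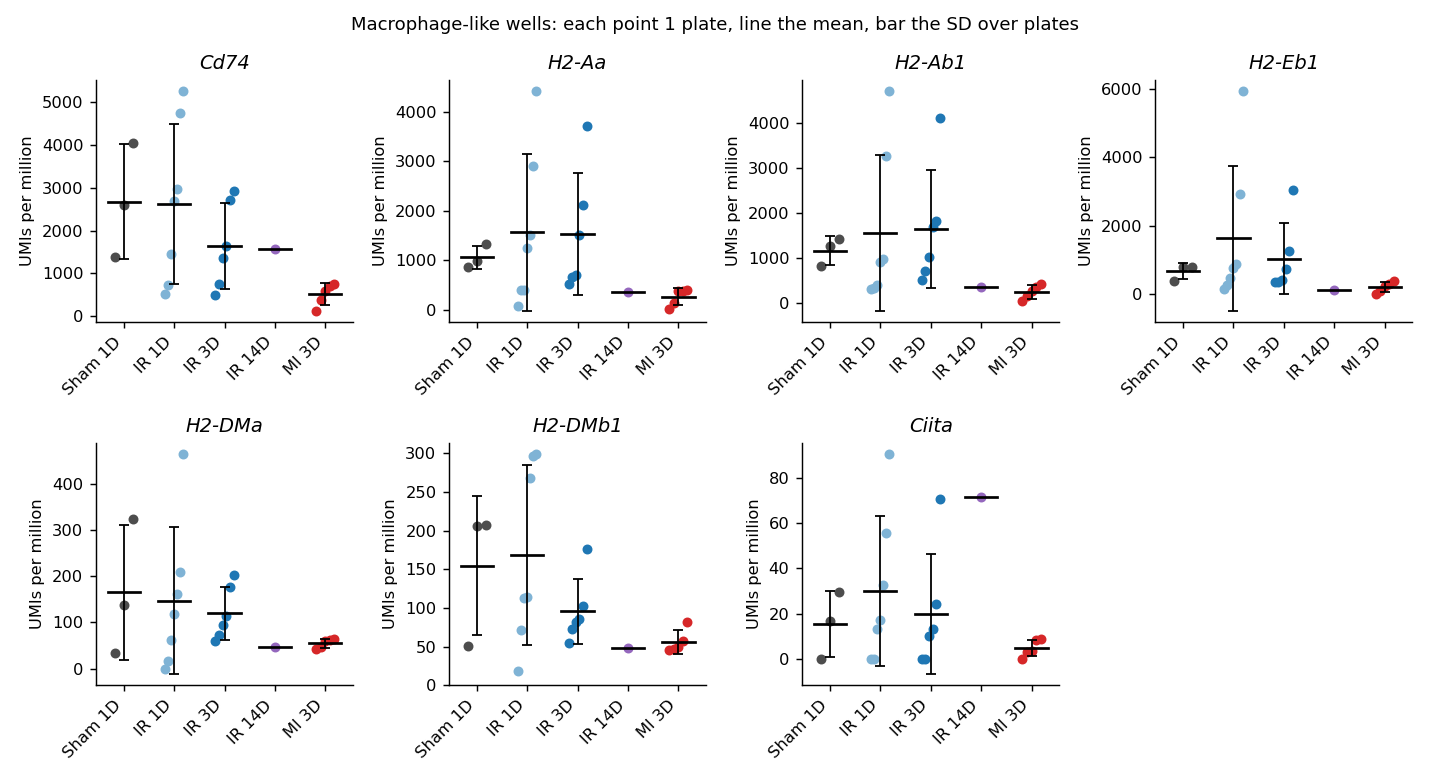
Level of each gene in macrophage-like wells, in CPM, with a point for each plate of at least 5 such wells, a line at the mean of the group and a bar of 1 SD over plates. The 5 MI 3D plates lie below every Sham 1D plate for Cd74, H2-Aa, H2-Ab1 and H2-Eb1, with Cd74 from 124 to 756 CPM, while the IR 1D and IR 3D plates are widely spread.

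The H2-DM genes were lower, and their groups overlapped. H2-DMa had a mean of 55.2 ± 10.1 CPM (SD, n = 5 plates) in MI 3D, 120 ± 57.7 (n = 6) in IR 3D, 147 ± 159 (n = 7) in IR 1D and 165 ± 147 (n = 3) in Sham 1D. H2-DMb1 had 56.0 ± 15.3, 95.5 ± 42.5, 169 ± 117 and 154 ± 90.0 in the same order. Their MI 3D plates overlapped those of the other 3 groups. Ciita, the transactivator, ran from 0 to 8.5 CPM in MI 3D, from 0 to 70.5 in IR 3D, from 0 to 90.4 in IR 1D and from 0 to 29.4 in Sham 1D, and was too sparse to enter the fit across genes.

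Between MI 3D and IR 3D, 3 of the 6 members tested fell by edgeR's quasi-likelihood test with Benjamini-Hochberg adjustment over 3070 genes, of which 11.2% changed in either direction and 5.77% fell. H2-Ab1 changed by a log2 fold of −2.70 (SE 0.67, adjusted p = 0.00955), H2-Aa by −2.46 (SE 0.70, adjusted p = 0.0234) and Cd74 by −1.67 (SE 0.54, adjusted p = 0.0452). H2-Eb1 stood at −2.29 (SE 0.76, adjusted p = 0.0516), H2-DMa at −0.83 and H2-DMb1 at −0.58, and did not pass. The median of the 6 was −1.98, beside −0.03 for all genes tested. The call of H2-Ab1 held without any single plate. That of H2-Aa was lost without IR 3D replicate 3 (adjusted p = 0.0569), MI 3D replicate 2 (0.0735) or MI 3D replicate 3 (0.0618). With 1 plate left out at a time, that of Cd74 held without IR 3D replicate 3 or 7 and was lost without each of the other 9 plates, IR 3D replicates 1, 4, 5 and 6 and MI 3D replicates 1 to 5, with adjusted p from 0.0432 to 0.125 over the 11 fits. H2-Eb1 passed without IR 3D replicate 5 (adjusted p = 0.0448). Among 11 other fits, with other tools, filters, minimums, choices of wells or a block, the call held in 11 for H2-Ab1, 10 for H2-Aa and 5 for Cd74, and H2-Eb1 passed in 5. Cd74 missed it at 3 wells per plate (adjusted p = 0.0508), with wells of at least 2000 UMIs (0.0874), with wells picked by markers (0.0624), and in the fits with 10 wells per plate, with a replicate block and without dendritic or B cell marker wells. With at least 10 wells per plate, which kept 4 IR 3D plates, Cd74 stood at −0.71 (adjusted p = 0.295), H2-Ab1 at −2.19 (0.00606), H2-Aa at −1.90 (0.0235) and H2-Eb1 at −1.76 (0.0439).

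Measures of other cells moved along with this contrast. All 7 cardiomyocyte markers tested fell in the MI 3D macrophage-like wells, with a median log2 fold of −2.97. Their summed level had medians of 191 CPM in MI 3D and 2317 in IR 3D, with ranges of 125 to 678 and 670 to 3244 and all 8 listed genes in the table. Neutrophil markers ran the other way, with 5 of 6 tested rising and a summed level of 538 to 1083 in MI 3D against 70.5 to 238 in IR 3D. Of the 10 dendritic cell markers, 3 were tested and 0 passed, and their summed level ran from 80.1 to 125 in MI 3D and from 0 to 815 in IR 3D. B cell markers summed to 3.6 to 8.5 and 0 to 136. Monocyte markers summed to 2668 to 3297 in MI 3D and 781 to 2717 in IR 3D, and the macrophage markers themselves to 10116 to 14057 and 16885 to 24740, with no overlap. With the wells holding dendritic or B cell markers left out, H2-Ab1 stood at −2.48 (adjusted p = 0.0112), H2-Aa at −2.54 (adjusted p = 0.0171) and Cd74 at −1.54 (adjusted p = 0.105). The part of the cardiomyocyte, neutrophil and monocyte transcripts, and of the lower macrophage markers, in these values was not tested. In sums over wells, fewer cells with a transcript and less of it per cell cannot be told apart.

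Against sham, 1 of the 6 members fell in MI 3D, where 3.75% of the 3070 genes changed in either direction and 3.06% fell. Cd74 changed by −2.46 (SE 0.62, adjusted p = 0.0219). The other members also had negative estimates without passing, at −2.32 for H2-Ab1 (adjusted p = 0.0914), −2.06 for H2-Aa, −1.79 for H2-Eb1, −1.47 for H2-DMb1 and −1.45 for H2-DMa. Among 10 other fits Cd74 passed in 9, H2-Ab1 in 4, H2-Aa and H2-Eb1 in 2 each and the H2-DM genes in 1 each. H2-Ab1 passed with DESeq2 (adjusted p = 0.0449), with no filter on low counts (3.81e-05), at 3 wells per plate (0.00432) and with wells of at least 2000 UMIs (0.0257), H2-Aa and H2-Eb1 with no filter and at 3 wells per plate, H2-DMa at 3 wells per plate and H2-DMb1 with DESeq2. The sham side of this contrast was the 3 Sham 1D plates with 6 to 7 macrophage-like wells each, collected 2 days earlier than MI 3D. The Cd74 call was lost without Sham 1D replicate 4 (adjusted p = 0.197), MI 3D replicate 2 (0.0632) or MI 3D replicate 3 (0.0611). With the dendritic and B cell marker wells left out, a single sham plate remained, assumed to vary like the other groups, and Cd74 stood at −3.21 (adjusted p = 0.142). In exact two-sided permutation tests on the plate levels, not adjusted, Cd74 and the 3 chains each gave p = 0.0179, the smallest value that 3 against 5 plates allow, among 35 such tests of 7 genes in 5 comparisons.

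The early days after ischaemia-reperfusion showed no change in the members that passed the test. Between IR 1D and sham 0 of 6 passed, where 2.18% of all genes did, and between IR 3D and sham 0 of 6, where 6.35% did. No member had an unadjusted p under 0.05 in either, where 15.2% and 20.7% of all genes did, and DESeq2 called none. In the first contrast Cd74 stood at −0.14, H2-Aa at 0.44, H2-Ab1 at 0.29 and H2-Eb1 at 1.17, and in the second at −0.79, 0.40, 0.38 and 0.50. The signs of the 3 chains turned in both contrasts with at least 3 wells per plate, to −0.86, −0.92 and −0.33 in the first. Between IR 3D and IR 1D, where 20.6% of all genes changed, 0 of 6 passed with edgeR or DESeq2, 1 of them with an unadjusted p under 0.05, where 32.7% of all genes had one. The estimates ran from −0.93 for H2-DMb1 (adjusted p = 0.106), the 1 with the low p, to 0.09 for H2-Ab1. The IR 1D plates covered more than an order of magnitude for each chain, with H2-Eb1 from 162 to 5942 and H2-Aa from 72.1 to 4419 CPM. H2-DMb1 passed between IR 3D and IR 1D without IR 1D replicate 3 (adjusted p = 0.0431) or 4 (0.0347), and H2-Aa was higher in IR 3D without the dendritic and B cell marker wells (3.97, adjusted p = 0.0418), a fit with 3 IR 1D plates.

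**Figure D4:**
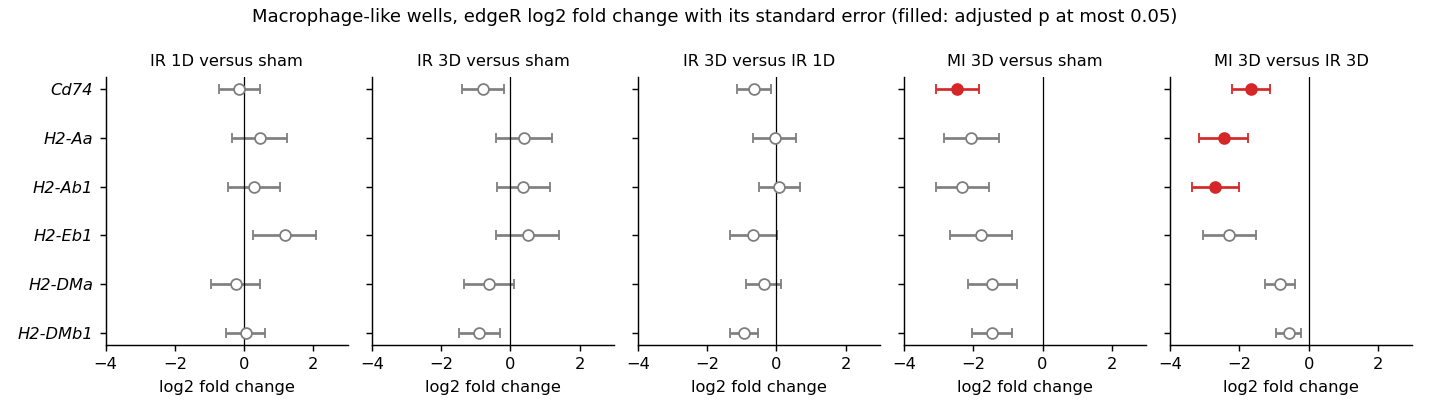
Log2 fold change of the members tested in each comparison of macrophage-like wells, with bars of 1 SE from edgeR and filled points where the adjusted p was at most 0.05. Filled points stand at H2-Ab1, H2-Aa and Cd74 for MI 3D versus IR 3D and at Cd74 for MI 3D versus sham.

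Genes around the class II pathway moved in both directions between MI 3D and IR 3D. Of 5 MHC class I genes tested, which present peptides from inside the cell to CD8+ T cells, 3 fell, namely H2-K1 by 1.01, H2-D1 by 1.00 and B2m by 0.85 on the log2 scale. Of 7 genes of endosomal peptide processing, Ctss fell by 1.08 and the other 6 did not pass. Ctss encodes the protease that trims the invariant chain and is also 1 of the macrophage markers above. Among 4 partners of CD74, its ligand Mif (1.52) and the chemokine receptor Cxcr2 (1.49), which is also 1 of the neutrophil markers above, rose. None of 3 costimulatory genes passed, 1 of 8 class II regulators with a row was tested and did not pass, and no other class II gene was abundant enough to test. The subset genes were unequal too, with Gpnmb at −2.45 and Folr2 at −1.37, both past the threshold.

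Between IR 3D and IR 1D some of the surrounding genes changed, where 20.6% of all genes tested did, while the members did not pass. Of 7 processing genes, 3 rose, Ctss by 1.58 and the cathepsins Ctsd by 2.14 and Ctsb by 2.16. B2m rose by 0.74 and H2-D1 by 0.97. Mif fell by 1.80, Cxcr2 by 1.45 and the costimulatory gene Cd86 by 2.19. All 7 cardiomyocyte markers tested rose here, and their summed level had medians of 479 CPM in IR 1D and 2317 in IR 3D.

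Class II levels were set beside the macrophage subset genes that a well carried. Ccr2 is a chemokine receptor of cells of monocyte origin, Lyve1, Cd163 and Folr2 are genes of resident macrophages, and Gpnmb is a gene of lipid-laden and phagocytic macrophages. For each of the 3 markers, wells with at least 2 UMIs were set beside wells with none. These sets were chosen after the data had been seen and have no test, and they share wells, since 43.6% of the 257 Ccr2 wells and 66.2% of the 284 Gpnmb wells were also among the 315 Lyve1/Cd163/Folr2 wells.

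Wells with Ccr2 had higher levels of all 7 members than wells without it. Over all groups Cd74 stood at 1116 CPM in the 257 wells with Ccr2 and 271 in the 265 wells without, H2-Aa at 699 and 158, H2-Ab1 at 654 and 162, H2-Eb1 at 520 and 118, H2-DMa at 89.8 and 45.2, H2-DMb1 at 90.6 and 39.3 and Ciita at 12.5 and 3.7. The ratio was smaller for the H2-DM genes than for Cd74 and the chains. The wells with Ccr2 were deeper, at a median of 16501 UMIs against 9695, and the part of depth in this was not tested.

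On the 5 MI 3D plates, wells with and without Ccr2 had about the same depth, with medians of 23077 and 23373 UMIs. Cd74 measured 1380, 615, 156, 1178 and 963 CPM in wells with Ccr2 of MI 3D replicates 1 to 5, and 82.0, 24.3, 30.7, 39.2 and 43.4 in wells without. The lowest plate with Ccr2 stood above the highest without. H2-Ab1 measured 776, 241, 29.9, 567 and 422 against 41.8, 22.8, 28.5, 26.1 and 23.2, and only MI 3D replicate 3 was near its level without Ccr2. Ciita, the master regulator of class II transcription, was read 39 times in the 154 MI 3D wells with Ccr2 and in 0 of 2641873 UMIs of the 100 wells without, which allows up to 1.1 CPM, for counting error only. Of the 39 UMIs of Ciita in MI 3D macrophage-like wells, 38 lay in wells with at least 2 UMIs of dendritic or B cell markers, as did 14 of the 15 wells that held it. These were 119 of the 280 wells, with a median of 31181 UMIs against 15730, and Ciita stood at 8.7 CPM in them against 0.30 in the rest.

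The same direction was seen in IR 3D on the plates with at least 3 wells of each kind. Cd74 measured 1469, 5478 and 1307 CPM with Ccr2 in replicates 4, 6 and 7 and 67.8, 289.99 and 108 without. Wells without Ccr2 were not low on every plate, since in IR 3D replicates 3 and 5 they stood at 839 and 1593 for Cd74 and 3138 and 781 for H2-Ab1. In the other groups wells without Ccr2 stood, for Cd74, at 1983 to 4473 on 3 Sham 1D plates, 9935 on 1 Sham 14D plate, 1576 on 1 IR 14D plate and 136 to 4810 on 5 IR 1D plates, most of them above the MI 3D wells with Ccr2. Both kinds of well were present on 10 plates, all of IR 1D, IR 3D or MI 3D. Cd74 and the 3 chains were higher with Ccr2 on 10 of 10, the H2-DM genes on 9 of 10 each and Ciita on 7.

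Wells with Lyve1, Cd163 or Folr2 went the other way. Cd74 stood at 300.2 CPM in the 315 wells with at least 2 UMIs of them and 2238 in the 176 wells with none, H2-Aa at 183 and 1405, H2-Ab1 at 187 and 1290, H2-Eb1 at 134 and 1061, H2-DMa at 47.4 and 135, H2-DMb1 at 47.1 and 144 and Ciita at 4.1 and 23.9. The median depth was 17306 UMIs with these genes and 9390.5 with none. The 11 plates with both kinds of well were all of IR 1D, IR 3D or MI 3D, so sham was not covered. Cd74 was lower with these genes on 11 and each of the 3 chains on 10, MI 3D replicate 3 being the exception. The level varied by group within these wells too. Cd74 ran from 1701 to 4473 in Sham 1D (3 plates), from 0 to 657 in IR 1D (3 plates), from 262 to 3988 in IR 3D (5 plates) and from 33.7 to 449 in MI 3D (5 plates). It stood at 9935 on 1 Sham 14D plate and 386.5 on 1 IR 14D plate. This is a description over plates of few wells, in which the Sham 1D and IR 3D plates overlapped.

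Wells with Gpnmb were also lower than wells without, on fewer plates. Cd74 stood at 373 CPM in the 284 wells with Gpnmb and 1499 in the 228 without, H2-Aa at 241 and 924 and H2-Eb1 at 177 and 699. Of 9 plates with both kinds of well, all of IR 1D, IR 3D or MI 3D, H2-Aa and H2-Eb1 were lower with Gpnmb on 9, Cd74 on 8 and H2-Ab1 on 7. In IR 3D replicate 3, 1 of the 2 exceptions for H2-Ab1, the 3 wells with Gpnmb stood at 5460 for H2-Ab1 against 4039 without. The median depth was 17436 UMIs with Gpnmb and 9206 without.

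Markers of other antigen-presenting cells differed between these sets, with the B cell markers lower in wells with Ccr2, where the members were higher. The summed level of the dendritic cell markers was 138 CPM in wells with Ccr2 and 88.6 without, 88.0 in wells with Lyve1, Cd163 or Folr2 and 214 without, and 93.7 in wells with Gpnmb and 169 without. The B cell markers stood at 9.2 and 28.8, 6.7 and 51.4, and 7.7 and 41.1 in the same order. Their part in the differences was not tested.

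**Figure D5:**
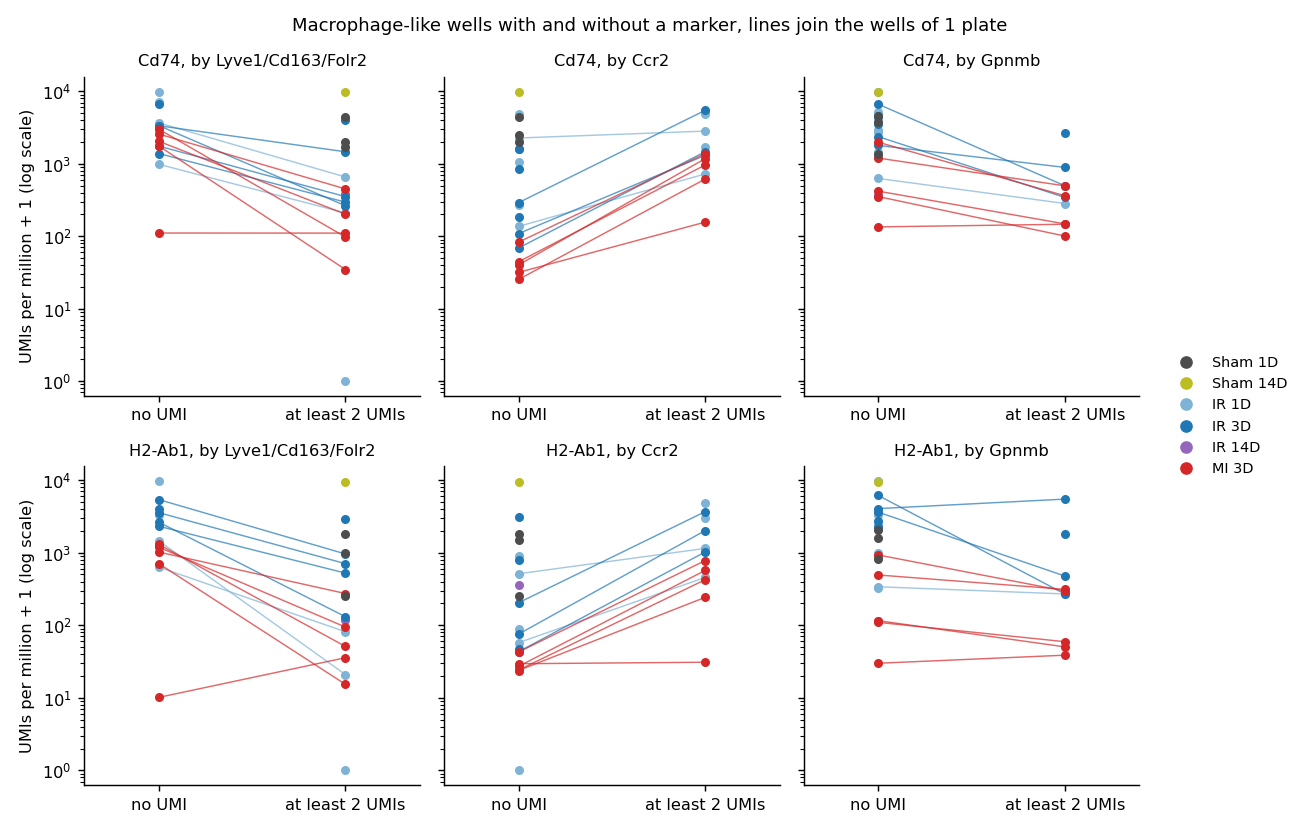
Level of Cd74 and H2-Ab1, in UMIs per 1000000 UMIs + 1 on a log axis, in macrophage-like wells with no UMI and with at least 2 UMIs of Lyve1, Cd163 and Folr2 together, of Ccr2 or of Gpnmb, with a point for each plate of at least 3 such wells, colours for groups and lines that join the wells of 1 plate. Each of the 10 lines rises for Ccr2 in both genes, and each of the 11 lines for Lyve1, Cd163 and Folr2 falls for Cd74.

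Over the 280 MI 3D wells, the genes whose log level was most like the mean of the 3 chains, among 9778 genes and beside the members themselves, were Plbd1 (r = 0.433), Cbfa2t3 (0.423), Cd83 (0.384), Arl5b (0.370), Tnfsf9 (0.366), Bend4 (0.349), Pvrl1 (0.332), Il1b (0.321), Dusp2 (0.314) and Cytip (0.313). The median gene had r = 0.0014, and the depth of the well 0.0068. Cd83, a surface protein of activated antigen-presenting cells, is known to protect class II molecules from removal. Over the IR 3D wells, Cytip (0.503), Il1b (0.491), Plbd1 (0.450), Cbfa2t3 (0.357) and Cd83 (0.302) were again positive, as was Dusp2 (0.238), while Pvrl1 (0.015), Arl5b (0.034), Tnfsf9 (0.075) and Bend4 (0.099) were near 0. On single MI 3D plates the lowest r was below 0 for Cd83 (−0.048), Il1b (−0.043), Dusp2 (−0.099) and Pvrl1 (−0.024). Ccr2 stood at 0.275 in MI 3D. Of the dendritic cell markers compared, Itgax stood at 0.309, Batf3 at 0.183 and Clec10a at −0.085. The processing genes were not alike. The cathepsins Ctsl, Ctsd and Ctsb stood at −0.330, −0.328 and −0.299, Lgmn at −0.221 and March8 at −0.116. Ctsz stood at −0.047, Ctss at −0.033, March1 at 0.096 and Ifi30 at 0.103. All wells of a group share a few plates, and such coefficients in sparse counts are a description.

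Outside the macrophages, class II transcripts of the endothelium came from few wells. Of 408 endothelial-like wells, 10 with at least 10 UMIs of Cd74 and the chains held 88.7% of their UMIs (1267 UMIs). Macrophage markers stood at 1349 CPM in those 10 wells against 360 in the rest, and endothelial markers at 5564 against 11074. Of the 10, 8 held at least 2 UMIs of macrophage markers, against 103 of 398. Whether these wells held more than 1 cell was not tested.

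Between MI 3D and sham in endothelial-like wells, 0 of 4 members tested passed, where 35.8% of 3620 genes did by edgeR. H2-Ab1 alone had an unadjusted p under 0.05, where 45.4% of all genes had one, and DESeq2 called none of the 4. Among 9 other fits H2-Ab1 passed in 4, with RLE scaling (adjusted p = 0.0459), at 3 wells per plate (0.0432), with Sham 14D replicate 7 alone in place of its mean with replicate 2 (0.0490) and with no filter on low counts (3.44e-05), and the other 3 members passed with no filter alone, Cd74 at 4.4e-05. Cd74 measured 2.4, 408, 0, 16.4 and 0 CPM in MI 3D, 0, 0, 609 and 439 in Sham 1D, and 26.9, 22.1, 0 and 2062 in Sham 14D. Most plates were at or near 0 and a few stood far above. Cd74 stood at −1.90 (adjusted p = 0.121) and H2-Ab1 at −2.05 (adjusted p = 0.0542). Without Sham 14D replicate 8 Cd74 stood at 0.14, and without MI 3D replicate 2 at −5.37 (adjusted p = 0.00113) with H2-Aa at −4.94 and H2-Eb1 at −3.65, both also past the threshold. H2-Ab1 passed without MI 3D replicate 2 (adjusted p = 0.00161), Sham 1D replicate 1 (0.0374) or 2 (0.0320), or Sham 14D replicate 1 (0.0264), 5 (0.0385) or 7 (0.0378). The MHC class I genes of the same wells moved together, with 5 of 5 tested falling, H2-K1 at −1.83 and H2-D1 at −1.17.

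In fibroblast-like wells, 2 members were abundant enough to test between MI 3D and IR 3D, and 0 passed where 11.1% of 6721 genes did by edgeR. Neither had an unadjusted p under 0.05, where 25% of all genes did, or was called by DESeq2. H2-Ab1 measured 102, 13.5, 24.9 and 14.1 CPM in IR 3D and 11.3 to 21.8 in MI 3D, with a log2 fold of −0.84 (adjusted p = 0.520). H2-Eb1 stood at −0.24 (adjusted p = 0.904).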

How the data were processed

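Cardiac cells of the infarct region were sorted 1 per well into plates and sequenced by SORT-seq, whose primers carry a 6-base UMI. Per the labels and the study's methods, the authors aligned reads with BWA to GRCm38/mm10 and deposited 1 table per plate of UMI counts per gene and well, not normalised. The BWA version and the annotation are not given in the sources used here. All 36 tables held whole numbers, and 0 columns belonged to other series.

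Wells with at least 1000 UMIs were clustered with scanpy 1.11.5 (Python 3.11.15) on 2000 variable genes without the 7 members, 30 principal components, 15 neighbours and Leiden resolution 1, and named by at least 3 raised markers. Doublets were not called. UMIs were summed per plate over at least 5 wells of a class and tested with edgeR 4.0.16 in R 4.3.3 (quasi-likelihood, TMM, filterByExpr, Benjamini-Hochberg over all genes tested, threshold 0.05) with a mean per group. Sham entered as 3 Sham 1D plates for macrophages. The procedure was tested on simulated counts. DESeq2 1.42.0, RLE scaling, no filter, other minimums of wells and UMIs, wells picked by markers, wells without dendritic or B cell markers, a replicate block and each plate left out were alternatives.

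Named genes were the members, the listed pathway genes past the threshold or needed beside a member, and the 10 genes most correlated with the 3 chains among those read in at least 10% of MI 3D macrophage-like wells. Wells with and without a subset gene were pooled per plate (at least 3 wells), with no test, and planned comparisons of gated subsets are not reported here. Members, lists and alternatives were chosen with earlier results of these data known. Levels cover plates of 176614 to 5551870 UMIs, and intervals cover counting error only.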

Additional observations from a re-analysis of the deposited data

Results flagged for a closer look

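Of 43 groups of 4 to 10 plates looked at for members that were tested or described, 16 had 1 plate far from the others by Dixon's test. For independent groups of normal values it flags about 1 in 20 by chance. These levels are sparse counts of genes that moved together on the same plates, so that rate cannot be set beside the 16. The cause was not tested for any of them.

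In macrophage-like wells, IR 3D replicate 3 stood at 4109.5 CPM (UMIs per 1000000 UMIs) for H2-Ab1 and 3057 for H2-Eb1, where the next plates stood at 1819 and 1274. IR 3D replicate 1 stood at 70.5 for Ciita, where the next plate stood at 24.4.

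In endothelial-like wells, Sham 14D replicate 8 stood far above the other Sham 14D plates, at 2062 CPM for Cd74, 1883 for H2-Aa, 1547 for H2-Ab1 and 1121 for H2-Eb1, where the next plates stood at 26.9, 77.3, 99.4 and 88.3. MI 3D replicate 2 did so within MI 3D, at 408, 333, 207 and 231, where the next plates stood at 16.4, 11.9, 19.1 and 26.2. In IR 1D, replicate 9 stood at 132 for Cd74, replicate 8 at 149.8 for H2-Aa and 81.7 for H2-Eb1, and replicate 6 at 143 for H2-Ab1. In fibroblast-like wells, IR 3D replicate 3 stood at 102 for H2-Ab1, where the next plate stood at 24.9.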

How the results depend on the processing

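Beside the calls described above, no member call in macrophage-like wells turned its direction under any alternative run. H2-Ab1 between MI 3D and IR 3D passed under all of them (adjusted p = 0.0402 with the replicate block). Replicate numbers did not pair the plates: residuals of 22 same-numbered pairs correlated at −0.0099 on average, with 0 over 0.1, against 0.0017 for 139 other pairs. With the block Cd74 (adjusted p = 0.114) and H2-Aa (0.112) no longer passed between MI 3D and IR 3D. The 6 fits in which Cd74 did not pass there are named above. H2-Eb1 passed there with DESeq2 (adjusted p = 0.0232), no filter (3.37e-07), 10 wells per plate (0.0439), the copied wells kept (0.0495) and wells picked by markers (0.0400).

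Counts of changed genes moved by more than 1.5 times as follows, and the cause was not tested. With DESeq2 they were 162 for IR 1D versus sham (67 by edgeR), 350 for IR 3D versus sham (195), 245 for MI 3D versus sham (115), 659 for MI 3D versus IR 3D (343), and 1177 in fibroblasts (744). With no filter they were, in the same order, 115, 306, 287, 1109 and 1232, with 1286 for IR 3D versus IR 1D (631) and 2055 in endothelial-like wells (1296). At least 3 wells per plate gave 137 for IR 1D versus sham, 45 for IR 3D versus sham and 369 in fibroblasts, and at least 10 wells gave 1395 for MI 3D versus IR 3D and 1432 in fibroblasts. Wells of at least 2000 UMIs gave 316 for IR 3D versus sham and 681 for MI 3D versus IR 3D. The replicate block gave 27, 37, 73, 79, 268 and 210 for IR 1D, IR 3D and MI 3D versus sham, MI 3D versus IR 3D, IR 3D versus IR 1D and fibroblasts. Without wells of dendritic or B cell markers, which left 1 sham plate, the counts were 6, 58, 15, 798 and 398 for the first 5 of these, and with wells picked by markers 573 for MI 3D versus IR 3D and 1262 for IR 3D versus IR 1D. Leaving out 1 plate gave 3 to 71 for IR 1D, 95 to 223 for IR 3D and 30 to 97 for MI 3D versus sham, 165 to 351 for MI 3D versus IR 3D, 407 to 660 for IR 3D versus IR 1D and 385 to 928 in fibroblasts.

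Signs of members that had not passed changed as follows. For IR 1D versus sham, H2-Aa, H2-Ab1, H2-Eb1 and H2-DMb1 stood at −0.86, −0.92, −0.33 and −0.059 with 3 wells per plate, −0.17, −0.94, −0.35 and −0.13 with 2000 UMIs, −0.74, −0.95, −0.73 and −0.56 with marker-picked wells, and −4.60, −3.65, −3.36 and −3.28 without dendritic or B cell marker wells, where 1 sham plate remained. H2-Aa, H2-Ab1 and H2-DMb1 stood at −0.14, −0.26 and −0.19 with the block, and H2-DMb1 at −0.0012 with DESeq2 and −0.0067 with RLE. For IR 3D versus sham, H2-Aa, H2-Ab1 and H2-Eb1 stood at −1.12, −0.93 and −0.999 with 3 wells and −0.63, −1.17 and −0.22 without the marker wells, H2-Ab1 and H2-Eb1 at −0.20 and −0.074 with 2000 UMIs, and H2-DMa at 0.011 with the block. For IR 3D versus IR 1D, H2-Aa, H2-Eb1 and H2-DMa stood at 0.12, 0.48 and 0.029 with 10 wells, 0.24, 0.28 and 0.18 with 2000 UMIs, 0.87, 1.05 and 0.17 with marker-picked wells and 0.62, 0.072 and 0.14 with the block. H2-Ab1 stood at −0.0057 with 3 wells, and Cd74, H2-Aa, H2-Eb1 and H2-DMb1 at 0.18, 3.97 (adjusted p = 0.0418), 3.14 and 1.39 without the marker wells.

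With 1 plate left out, IR 1D versus sham ran from −0.46 to 0.33 for Cd74, −0.11 to 0.66 for H2-Aa, −0.36 to 0.48 for H2-Ab1, −0.81 to 0.53 for H2-DMa and −0.45 to 0.42 for H2-DMb1. IR 3D versus sham ran from −0.034 to 0.60 for H2-Ab1, −0.044 to 0.71 for H2-Eb1 and −1.21 to 0.17 for H2-DMa. IR 3D versus IR 1D ran from −0.43 to 0.51 for H2-Aa, −0.31 to 0.74 for H2-Ab1, −1.19 to 0.24 for H2-Eb1 and −0.58 to 0.21 for H2-DMa. In endothelial-like wells Cd74 ran from −5.37 to 0.14 and H2-Aa from −4.94 to 0.25, and in fibroblasts H2-Eb1 from −0.63 to 0.89. Not run, for too few plates, was the minimum of 10 wells per plate against sham. With a median depth of 5574 UMIs and 20 wells in Sham 1D, changes in H2-DMa, H2-DMb1 and Ciita were the least resolved.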

Other observations

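A cluster of 41 wells of no named class, led by Cxcl3, Hal and Slpi, carried 2 raised macrophage markers and stood out from the other wells without a name. Of its wells, 38 came from IR 1D. Cd74 was read in 27 of the 41 wells at 858 CPM, H2-Aa at 395, H2-Ab1 at 443 and H2-Eb1 at 223. Over the wells of no named class as a whole, 15 of 495 wells held 67.7% of the UMIs of Cd74 and the 3 chains, and macrophage markers stood at 3290 CPM in those 15 against 1836 in the other 480.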
